A study of Mus musculus with 13 samples.

Results

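Neuregulin and ErbB signalling was followed here through 6 genes, 2 for ligands (Nrg1 and Hbegf) and 4 for receptors (Egfr, Erbb2, Erbb3 and Erbb4), chosen by symbol from the 27998 genes of the single-cell count matrices. The neuregulins and the heparin-binding EGF-like growth factor are made as membrane-bound proteins and are shed to reach receptors on neighbouring cells. ErbB receptors act in pairs: the Erbb2 protein binds no ligand of its own and serves as partner of the others, the Erbb3 protein binds neuregulin but has little kinase activity, and the Erbb4 protein binds neuregulin and signals. In the developing heart, neuregulin from the endocardium, the inner lining, is known to act on ErbB receptors of the heart muscle and to be needed for trabeculae.

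The samples were wild-type C57Bl/6J mice, with no allele and no agent in any group. Embryos at E8.5 and E10.5 were taken without head and limbs, and whole hearts came from fetuses at E12.5, then E14.5, then E16.5, and from pups at P3, the third day after birth. There were 10 matrices from 13 sample records: 1 at E8.5 (replicate 2, the other E8.5 sample not analysed here), 2 each at E10.5, E12.5, E14.5 and E16.5, and 1 at P3 in which both P3 samples are pooled. The first E16.5 matrix pools 2 records. The labels do not say whether libraries came from separate animals, so p-values measure the spread between libraries. The paper describes cell batches within each stage, so stage and preparation cannot be told apart. Whole-matrix totals ran from 67141166 to 259041468 UMIs (unique molecular identifiers, 1 per captured transcript), with 4928 to 14675 barcodes of at least 2000 UMIs and medians of 10268 to 24516 UMIs in them. Libraries shared at most 2.42% of the smaller library's barcodes. Method sources differ in the dissociation enzyme and chemistry named, which is not resolved here.

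Cells were grouped by marker genes outside the 6. Endocardium had Cdh5, an endothelial junction protein, with Npr3 at or above its cut, and other endothelium had Cdh5 with no Npr3 UMI. Cdh5 barcodes with Npr3 UMIs below the cut entered neither class. They numbered 54 at E8.5, 83 and 95 in E10.5 libraries, and 146 and 172 in E12.5 libraries. In E10.5 libraries they were deeper, with medians of 27210 and 30082 UMIs against 13906 and 12706 in endocardium. Cardiomyocytes had the troponin gene Tnnt2, mesenchyme the collagen gene Col1a1, and neural crest the transcription factor gene Sox10, as a class in embryos only. Muscle, endothelium, mesenchyme and neural crest were told apart by their markers: 7 cardiomyocyte markers that the gates did not use summed to between 21356 and 25003 CPM (UMIs of a gene per 1000000 UMIs of the summed class) in heart cardiomyocytes and to between 472 and 686 in endocardium. The 7 genes of the endothelial list, one of which (Cdh11) is also a mesenchymal gene, summed to between 1261 and 2589 in endocardium and to between 15.3 and 35.1 in cardiomyocytes. They did not separate the endothelial classes from each other, since other endothelium had 1240 to 2396. In mesenchyme, all 7 mesenchymal markers had UMIs in every heart library, and the cardiomyocyte list summed to between 464 and 1097. In mesenchyme of the embryos, 5 of the 7 had UMIs in every library. There the mesenchymal list summed to between 1669 and 2079 CPM and 3 smooth muscle markers to between 484 and 1868. In embryonic neural crest, the 6 further neural crest markers had UMIs in every library and summed to between 332 and 452 CPM, against 12.1 to 23.1 for the cardiomyocyte list. The class also held 173 to 186 CPM of the mesenchymal list, and the neural crest list summed to between 54.4 and 179 in neural progenitors, 97.8 and 206 in neurons and 72.7 and 122 in other endothelium of the embryos. Erythroid cells, which should lack all 6 genes, gave the background: no gene exceeded 1.71 CPM in them. The 7 globin genes summed to between 791803 and 950817 CPM in heart erythroid cells and to between 213245 and 287093 in those of embryos. Few UMIs were thus left for other genes in heart erythroid cells, so their levels and shares, thinned ones included, are low in part by construction. Free RNA carried cardiomyocyte transcripts, with Tnnt2 at 2724 to 5649 CPM in barcodes of at most 100 UMIs from the E12.5 to E16.5 hearts.

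The 6 genes lie on 5 chromosomes of the mouse build GRCm38. Nrg1 spans 31814551 to 32884029 on chromosome 8, minus strand, and Erbb4 spans 68032186 to 69108059 on chromosome 1, minus strand. Erbb3 runs from 128567523 to 128589652 on chromosome 10, minus strand. Egfr (16752203 to 16918158) and Erbb2 (98412470 to 98437716) lie on the plus strand of chromosome 11, and Hbegf lies at 36504927 to 36515805 on the minus strand of chromosome 18. Counts at the end of transcripts cannot tell the neuregulin isoforms apart. Levels below are in CPM, given for replicate 1 and then replicate 2. They are not corrected for transcript length, so genes are compared with themselves only.

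Nrg1, the neuregulin gene, had its highest level of the 4 heart classes in the endocardium at E14.5, E16.5 and P3. Endocardial Nrg1 was 15.4 CPM in the E8.5 library, from 19 barcodes. It was 9.05 and 10.2 in E10.5 libraries, 27.2 and 28.4 in E12.5 libraries, and 32.6 and 27.8 in E14.5 libraries. It was 33.8 and 25.0 in E16.5 libraries and 38.9 at P3 (95% Poisson interval 32.8 to 45.9). The barcode suffixes of the P3 pool stood far apart at 18.9 and 82.8. The levels at E12.5 and after did not overlap those at E10.5. The E10.5 barcodes came from embryos without head and limbs and the later ones from hearts, so stage and tissue cannot be told apart here. Whether the embryonic Npr3 barcodes lay in the heart was not tested. In cardiomyocytes Nrg1 was 2.30 at E8.5, 0.904 and 0.714 in E12.5 libraries, 0.224 and 0.162 in E14.5 libraries, 0.0144 and 0.0612 in E16.5 libraries, and 0.129 at P3. A UMI of Nrg1 was present in 32.8% and 32.7% of endocardial barcodes at E12.5 (median 17340 and 17511 UMIs), against 0 of 320 erythroid barcodes, which allows a share of up to 0.938%, and 0.225% of 444 (median 30347 and 27094 UMIs). After every barcode was thinned to 2000 UMIs the endocardial shares were 5.26% and 4.43%, and the erythroid shares were 0 in both libraries. Most of the 2000 UMIs of a thinned erythroid barcode are globin, so the depth for other genes was not matched. In mesenchyme Nrg1 was 7.37 and 10.3 in E12.5 libraries, 3.85 and 2.70 in E14.5 libraries, 0.749 and 1.63 in E16.5 libraries, and 4.05 at P3. In other endothelium it was 38.9 and 40.0 in E12.5 libraries, 10.4 and 6.29 in E14.5 libraries, 1.08 and 1.86 in E16.5 libraries, and 1.26 at P3. At E10.5 Nrg1 was 8.82 and 0 in mesenchyme (6 UMIs in all), 0.817 and 0.420 in cardiomyocytes and 2.63 and 1.95 in other endothelium.

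**Figure D1:**
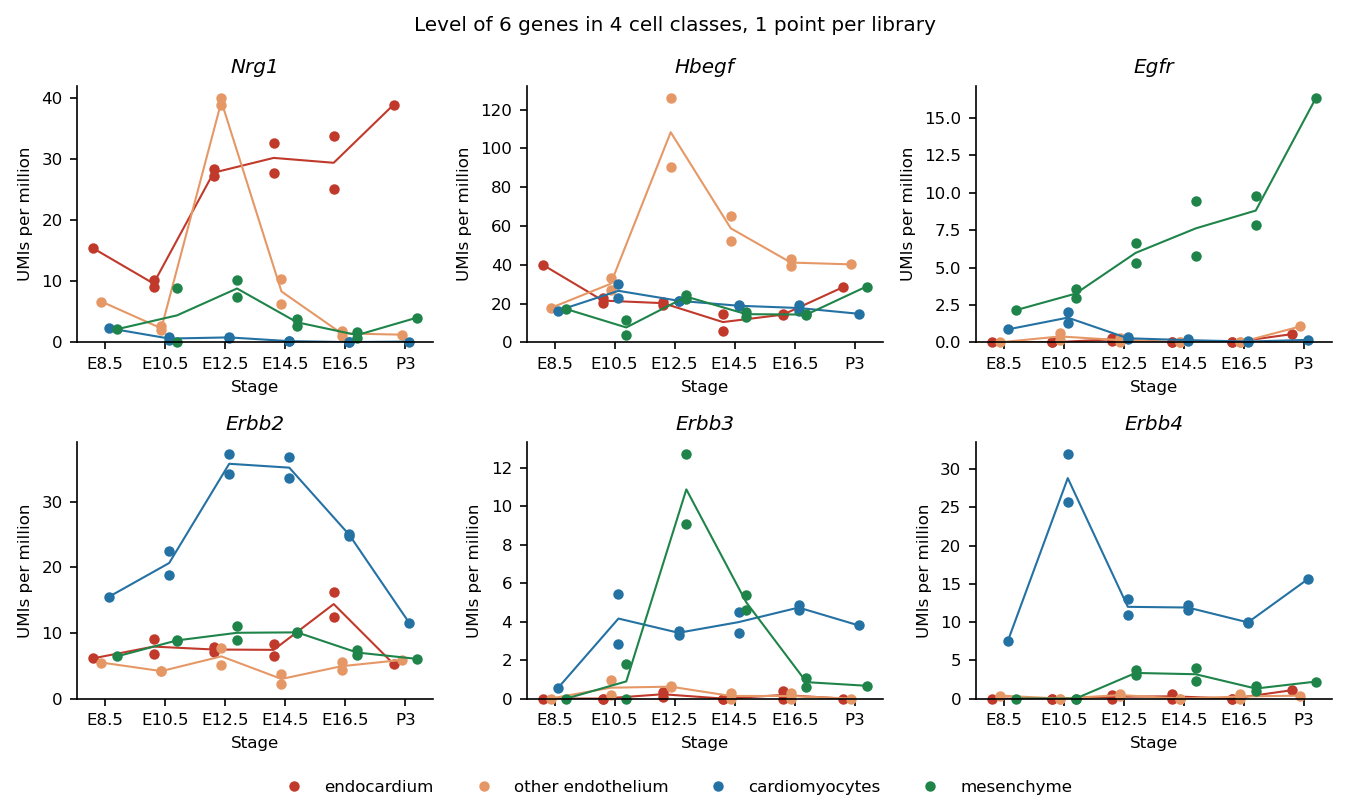
CPM (vertical axis) of each gene by stage (horizontal axis) in endocardium, other endothelium, cardiomyocytes and mesenchyme; each point is 1 library and lines join stage means. Nrg1 lies between 25.0 and 33.8 in endocardium of the 6 libraries from E12.5 to E16.5 and at 38.9 at P3, a pool of barcodes at 18.9 and 82.8, and Erbb2 and Erbb4 are highest in cardiomyocytes of the 4 classes.

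Hbegf, the gene of the EGF-like ligand of Egfr and Erbb4, was spread over several classes. In endocardium it was 40.0 CPM at E8.5, 22.6 and 20.4 in E10.5 libraries, 21.0 and 19.4 in E12.5 libraries, 14.8 and 6.06 in E14.5 libraries, 14.47 and 14.1 in E16.5 libraries, and 28.4 at P3. In other endothelium it was higher at every stage from E10.5, with 33.2 and 27.2 in E10.5 libraries, 126 and 90.6 in E12.5 libraries, 65.1 and 52.5 in E14.5 libraries, 39.5 and 42.7 in E16.5 libraries, and 40.2 at P3. Cardiomyocytes held 16.4 at E8.5, 22.9 and 30.2 in E10.5 libraries, 21.4 and 21.5 in E12.5 libraries, 19.1 and 18.6 in E14.5 libraries, 16.1 and 19.3 in E16.5 libraries, and 14.7 at P3. Mesenchyme ranged from 3.57 to 28.8, the highest at P3.

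Among the receptors, Erbb2 and Erbb4 were higher in cardiomyocytes than in endocardium, other endothelium and mesenchyme at the 5 stages from E10.5. At E8.5 the Erbb2 difference was not detectable at this depth from endocardium, at 2.53-fold (interval 0.667 to 21.4), or from mesenchyme, at 2.42-fold (interval 0.784 to 12.1). Erbb4 had 26 cardiomyocyte UMIs there and 0 in endocardium, a level below the limit that 0 counts allowed in its 19 barcodes, and it was at least 1.16-fold higher than in mesenchyme. Cardiomyocyte Erbb2 was 15.5 CPM at E8.5, 22.5 and 18.9 in E10.5 libraries, 34.3 and 37.4 in E12.5 libraries, 36.8 and 33.6 in E14.5 libraries, 24.8 and 25.1 in E16.5 libraries, and 11.5 at P3. The E12.5 and E14.5 libraries did not overlap those of any other stage. Erbb2 in endocardium was 6.15 at E8.5, 6.79 and 9.08 in E10.5 libraries, 7.16 and 7.82 in E12.5 libraries, 8.31 and 6.56 in E14.5 libraries, 16.3 and 12.51 in E16.5 libraries, and 5.25 at P3. In mesenchyme Erbb2 ranged from 6.05 to 11.1. An Erbb2 UMI was present in 38.4% and 38.2% of cardiomyocyte barcodes at E12.5, against 5.00% and 0.676% of erythroid barcodes (medians 20337 and 16864 against 30347 and 27094 UMIs). Thinned to 2000 UMIs, the shares were 4.61% and 5.86% against 0.312% and 0%, with most erythroid UMIs being globin.

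Cardiomyocyte Erbb4 was 7.48 CPM at E8.5, 25.7 and 31.9 in E10.5 libraries, 10.9 and 13.1 in E12.5 libraries, 12.2 and 11.6 in E14.5 libraries, 10.0 and 9.92 in E16.5 libraries, and 15.6 at P3. The E10.5 level lay above that of every other stage. In endocardium 6 UMIs of Erbb4 were counted over the 6 heart libraries of E12.5 to E16.5, and none at E8.5 or E10.5. Mesenchyme had 0.998 to 4.06 in the E12.5 to E16.5 hearts. Free RNA of these hearts held Erbb4 at 2.87 to 5.89, and its part in the mesenchymal level was not tested.

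Among the gated classes of the hearts, Egfr, the EGF receptor gene, was found mainly in mesenchyme and in barcodes with Upk3b, a mesothelial gene. Its level in mesenchyme was 2.14 at E8.5 (1 UMI), 2.94 and 3.57 in E10.5 libraries, 5.32 and 6.64 in E12.5 libraries, 5.78 and 9.46 in E14.5 libraries, 7.86 and 9.76 in E16.5 libraries, and 16.3 at P3 (95% Poisson interval 14.51 to 18.3). Cardiomyocytes had at most 2.04 and endocardium at most 0.552. Embryonic epithelium, gated on Epcam, ranged from 1.87 to 3.89, overlapping the mesenchyme of the embryos. The Upk3b barcodes had 6.79 and 6.28 in E10.5 libraries and 6.62 and 6.05 in E12.5 libraries, overlapping mesenchyme at E12.5. At E10.5 the mesenchyme values rest on very few Egfr UMIs in 66 and 56 barcodes, so no order is drawn there. They are not named as epicardium, since in embryos their epicardial list summed to between 97.6 and 289 CPM and their mesenchymal list to between 271 and 387, and in hearts the sums were 327 to 3323 and 1287 to 3473.

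Erbb3 was higher in neural crest than in the other classes of the embryos. In Sox10 cells of the embryos it was 19.1 at E8.5 and 45.9 and 46.3 in E10.5 libraries, and a UMI was present in 44.0%, 52.2% and 53.3% of those barcodes. The erythroid shares were 0%, 1.65% and 2.15%. Median depths were 33370, 19311 and 18721 UMIs in neural crest, and the thinned shares were 3.73%, 8.70% and 6.09%, against 0%, 0.413% and 0% of erythroid barcodes. Neural crest also held Erbb2, at 10.7 at E8.5 and 14.2 and 10.6 in E10.5 libraries. In mesenchyme Erbb3 was 12.7 and 9.06 in E12.5 libraries, 5.39 and 4.60 in E14.5 libraries, 0.624 and 1.08 in E16.5 libraries, and 0.666 at P3. In cardiomyocytes it ranged from 0.576 at E8.5 to 5.46 at E10.5, with 3.32 and 3.52 in E12.5 libraries, 4.52 and 3.43 in E14.5 libraries and 4.87 and 4.59 in E16.5 libraries. Endocardium had 5 UMIs of Erbb3 over the 6 heart libraries.

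The RefSeq promoter table used here held 3 of the 6 genes, and the bases upstream of the start are shown for the receptor genes that differ in where they were found: Erbb2 and Erbb4, high in cardiomyocytes, and Egfr, high in mesenchyme. Capitals mark motif matches on either strand. The first motif searched was GGGCGG, the core of a GC box. The second was CCAAT, the core of a CCAAT box. A TATA motif, written TATAAA, was searched as well, with the GATA motif AGATAA as the last. No match overlapped another. The build is GRCm38.p6, and each line is written 5′ to 3′ on the gene's own strand.
Erbb2, chr11:98412234-98412469, plus strand: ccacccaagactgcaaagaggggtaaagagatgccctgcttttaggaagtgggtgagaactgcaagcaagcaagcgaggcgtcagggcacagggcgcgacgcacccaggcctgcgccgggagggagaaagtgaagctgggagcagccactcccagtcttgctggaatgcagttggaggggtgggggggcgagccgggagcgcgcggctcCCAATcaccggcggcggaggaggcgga
Erbb4, chr1:69108060-69108309, minus strand: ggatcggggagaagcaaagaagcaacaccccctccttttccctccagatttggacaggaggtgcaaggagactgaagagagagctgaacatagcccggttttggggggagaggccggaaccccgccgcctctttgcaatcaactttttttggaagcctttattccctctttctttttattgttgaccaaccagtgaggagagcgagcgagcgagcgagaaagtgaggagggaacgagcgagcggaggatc
Egfr, chr11:16751953-16752202, plus strand: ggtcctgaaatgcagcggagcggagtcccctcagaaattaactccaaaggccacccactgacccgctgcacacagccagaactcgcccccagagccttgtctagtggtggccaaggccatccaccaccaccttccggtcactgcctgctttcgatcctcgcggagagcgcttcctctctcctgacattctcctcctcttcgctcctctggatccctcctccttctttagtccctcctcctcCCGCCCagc

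Erbb2 held 1 match of CCAAT, and Egfr held 1 match of GGGCGG on the reverse strand. Erbb4 had no match of the 4 motifs. Of 32851 start regions, read over up to 250 upstream bases, 32.7% held GGGCGG, 33.8% CCAAT, 12.4% TATAAA and 9.99% AGATAA. GC made up 65.7% of the Erbb2 stretch, 54.0% of Erbb4 and 60.8% of Egfr.

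The first comparison asked how ligand and receptor genes differed between the inner lining and the muscle of the heart, as the mean over E12.5, E14.5 and E16.5 with 2 libraries per stage. Among 13157 genes tested, 38.8% were higher and 37.8% lower in endocardium than in cardiomyocytes, and of the 6 genes 1 was higher and 4 lower. Nrg1 was higher in endocardium by 7.13 ± 0.17 on the log2 scale (SE; edgeR quasi-likelihood test, adjusted p = 7.45e-32). Over pooled counts Nrg1 was 28.8 CPM in endocardium and 0.350 in cardiomyocytes, the latter below free RNA in every library. The fitted mean weighs the stages alike, E16.5 among them, where cardiomyocytes had 0.0144 and 0.0612 CPM. Its size therefore rests on very low cardiomyocyte levels. Erbb2 was lower by a log2 difference of -1.87 ± 0.09 (adjusted p = 1.41e-21) and Hbegf by -0.50 ± 0.12 (adjusted p = 0.000236). Erbb4 was 54.5-fold higher in cardiomyocytes over the pooled counts (95% counting interval 25.0 to 149, 3646 against 6 UMIs; adjusted p = 3.58e-18 in the fit). Erbb3 was 23.7-fold higher (interval 10.1 to 73.2, 1324 against 5 UMIs; adjusted p = 5.65e-13). The pooled endocardial levels, 0.207 CPM for Erbb4 and 0.173 for Erbb3, were within counting error of the erythroid background (0.172 and 0.134), so both folds are against a background level. Egfr did not pass (adjusted p = 0.257), with 49 UMIs in cardiomyocytes and 4 in endocardium. Where a value is given below without 1 library, the stage of that library has 1 library left, so the p-value takes its spread from the other stages and classes and assumes that the lone library varies like them. The call for Hbegf was lost when gate thresholds were divided by 2 (log2 difference -0.17, adjusted p = 0.232). Over pooled counts Hbegf was 1.09-fold higher in cardiomyocytes (interval 0.999 to 1.20), 1.07-fold at E12.5 (interval 0.957 to 1.19), 1.63-fold at E14.5 (interval 1.27 to 2.14) and 1.22-fold at E16.5 (interval 0.954 to 1.58), so the pooled difference was clear of counting error at E14.5 alone.

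Mesenchyme was set against cardiomyocytes in the same hearts. Of all genes 41.7% were higher and 37.4% lower in mesenchyme, and of the 6 genes 2 were called higher and 4 lower, Erbb3 among the latter. Egfr was higher by 5.53 ± 0.27 on the log2 scale (adjusted p = 1.83e-19) and Nrg1 by 3.88 ± 0.33 (adjusted p = 1.65e-13). The log2 difference was -2.00 ± 0.08 for Erbb2 (adjusted p = 7.75e-24) and -2.48 ± 0.16 for Erbb4 (adjusted p = 9.97e-16). Hbegf had a difference of -0.38 ± 0.10 (adjusted p = 0.000517), lost with barcodes thinned to 2000 UMIs (log2 difference -0.36, adjusted p = 0.0530). Over pooled counts it was 1.16-fold higher in cardiomyocytes (interval 1.06 to 1.27), but at E12.5 mesenchyme was the higher class by 1.08-fold (interval 0.922 to 1.26). Erbb3 passed narrowly at -0.41 ± 0.18 (adjusted p = 0.0432) and failed without E12.5 replicate 2 (adjusted p = 0.0985) and without E16.5 replicate 1 (adjusted p = 0.235). Its mean over stages hides a turn: over pooled counts Erbb3 was 2.99-fold higher in mesenchyme at E12.5 (interval 2.31 to 3.83) and 1.24-fold at E14.5 (interval 0.891 to 1.70), and 5.86-fold higher in cardiomyocytes at E16.5 (interval 3.25 to 11.8). Over the 3 stages pooled, mesenchyme was the higher class by 1.08-fold (interval 0.896 to 1.29), so the fitted mean gives no direction for Erbb3.

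Endocardium was also compared with mesenchyme. Of all genes 30.3% were higher and 33% lower, and of the 6 genes 1 was higher and 3 lower. Nrg1 was higher in endocardium by 3.24 ± 0.16 on the log2 scale (adjusted p = 1.53e-20). Egfr was 55.3-fold higher in mesenchyme over pooled counts (interval 21.3 to 205, 228 against 4 UMIs), Erbb3 25.6-fold (interval 10.7 to 80.2) and Erbb4 10.998-fold (interval 4.80 to 31.0), all 3 past the threshold and all 3 against an endocardial level within the counting error of the erythroid background. Erbb2 (log2 difference 0.14 ± 0.13, adjusted p = 0.395) and Hbegf (-0.11 ± 0.14, adjusted p = 0.514) did not pass. For Erbb2 the mean joins stages that went opposite ways over pooled counts, with mesenchyme 1.38-fold higher at E12.5 (interval 1.03 to 1.83) and endocardium 2.08-fold higher at E16.5 (interval 1.501 to 2.87).

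**Figure D2:**
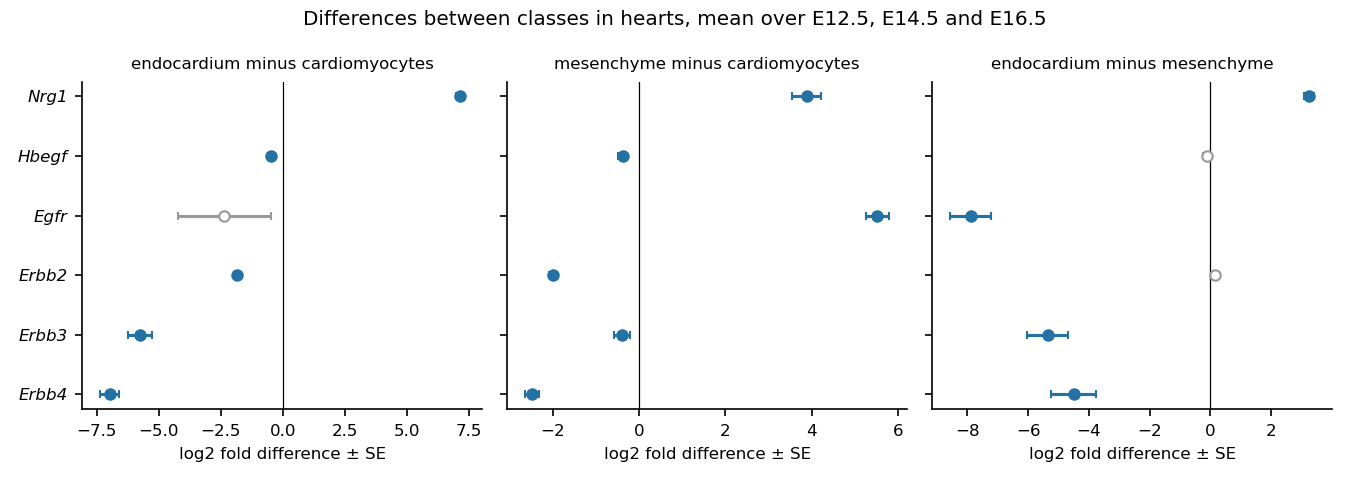
Log2 fold difference (horizontal axis) with its SE for each gene (vertical axis) between 2 classes, averaged over E12.5, E14.5 and E16.5; filled points passed the test, open points did not. Nrg1 is the gene higher in endocardium, at 7.13 against a cardiomyocyte level of 0.350 CPM over pooled counts. Fitted values of Egfr, Erbb3 and Erbb4 against endocardium rest on 4 to 6 endocardial UMIs and are not bounds.

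Against other endothelium, endocardium had 22.1% of all genes higher and 23% lower, and of the 6 genes 2 were higher and 1 lower. Hbegf was lower in endocardium by -2.15 ± 0.12 on the log2 scale (adjusted p = 2.51e-18). Nrg1 was higher by 1.87 ± 0.16 (adjusted p = 2.44e-12) and Erbb2 by 1.01 ± 0.17 (adjusted p = 4.07e-06). The Erbb2 call was lost with barcodes thinned to 2000 UMIs (log2 difference 1.36, adjusted p = 0.0850). Erbb2 overlapped at E12.5, with 7.16 to 7.82 CPM in endocardium and 5.18 to 7.70 in other endothelium, and did not overlap at E14.5 or E16.5. Erbb3, Erbb4 and Egfr did not pass, with 6, 5 and 1 UMIs in other endothelium. The mean over stages hides a turn for Nrg1: at E12.5 other endothelium was the higher class in both libraries, and at E14.5 and E16.5 endocardium was.

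That turn was tested as the change from E12.5 to E16.5 in endocardium against the change in other endothelium, a comparison added after the values had been seen. Of all genes 7.51% had a higher and 12.3% a lower change in endocardium, and 2 of the 6 genes passed, both higher. For Nrg1 the changes differed by 4.66 ± 0.42 on the log2 scale (adjusted p = 5.30e-11). For Erbb2 they differed by 1.14 ± 0.38 (adjusted p = 0.0286), a call lost without E12.5 replicate 2 (adjusted p = 0.271), without E16.5 replicate 1 (adjusted p = 0.414) and with no filter on low counts (adjusted p = 0.0706). Nfatc1, an endocardial transcription factor gene, stood at 88.8 and 92.4 CPM in other endothelium at E12.5 and at 41.8 and 47.5 in endocardium. The names of these 2 classes therefore rest on Npr3, and their make-up at E12.5 was not tested.

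Barcodes of endocardium and other endothelium were therefore also split by Nfatc1 (at least 1 UMI per 10000, or none). The split was chosen after the levels had been seen and is given with no test. Among Npr3-negative barcodes with Nfatc1, Nrg1 was 52.3 and 73.8 in E12.5 libraries, 62.9 and 22.3 in E14.5 libraries, 2.59 and 16.1 in E16.5 libraries and 1.35 at P3. Among Npr3-negative barcodes without Nfatc1 it was 21.6 and 24.8, then 3.84 and 4.68, then 0.482 and 0.543, and 0.289 at P3. Hbegf was 207 and 163 in E12.5 libraries and 280 and 210 in E14.5 libraries in the Npr3-negative barcodes with Nfatc1, above every other endothelial subset of those stages. These groups held 20 to 66 barcodes from E12.5 to E16.5. Npr3 barcodes without Nfatc1 had more Nrg1 than those with it in all 6 heart libraries of E12.5 to E16.5, for example 41.4 against 21.7 and 48.8 against 13.2 at E14.5.

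**Figure D3:**
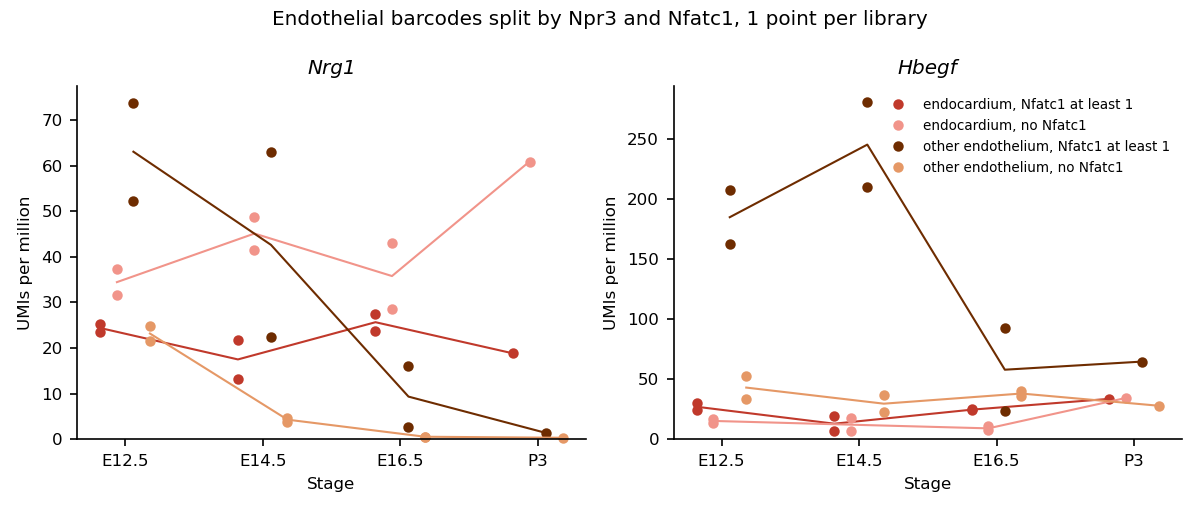
CPM (vertical axis) of Nrg1 and Hbegf by stage (horizontal axis) in endothelial barcodes, each class with and without Nfatc1. Endocardium has Npr3 at or above its cut, and other endothelium has no Npr3 UMI. Each point is 1 library, lines join stage means. The Npr3-negative barcodes with Nfatc1 hold the highest Hbegf at E12.5 and E14.5, from 163 to 280.

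At E10.5 the same comparison of endocardium with cardiomyocytes was made in the embryo libraries, with 54 and 48 endocardial and 165 and 168 cardiomyocyte barcodes. Of all genes 15.7% were higher and 16.9% lower in endocardium, and of the 6 genes 1 was higher and 3 lower. Nrg1 was 15.5-fold higher in endocardium over pooled counts (interval 4.48 to 82.6, 17 against 3 UMIs; adjusted p = 0.000106). The cardiomyocyte levels, 0.817 and 0.420 CPM, lay below the erythroid levels of 1.17 to 1.46 at E10.5, so this fold is against a background level. Erbb4 was at least 16.9-fold higher in cardiomyocytes, with 139 UMIs against 0, the floor being 3 counts over the group. Erbb3 was at least 2.44-fold higher there, with 20 UMIs against 0, and its call was lost without either library (adjusted p = 0.0531 and 0.183). Erbb2 had a log2 difference of -1.34 ± 0.34 (adjusted p = 0.00210), lost without E10.5 replicate 1 (adjusted p = 0.177) and with the study's mitochondrial ceilings (adjusted p = 0.0837). Hbegf (-0.26 ± 0.33, adjusted p = 0.606) and Egfr did not pass, though Egfr did with gate thresholds divided by 2 (adjusted p = 0.0101).

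Neural crest was compared with cardiomyocytes and with mesenchyme at E10.5. Against cardiomyocytes, 23.3% of all genes were higher and 25.5% lower in neural crest, and of the 6 genes 1 was higher and 3 lower. Erbb3 was higher by 3.49 ± 0.27 on the log2 scale (adjusted p = 9.77e-14). Erbb4 was 187-fold higher in cardiomyocytes over pooled counts (interval 50.8 to 1560, 139 against 2 UMIs). Hbegf had a log2 difference of -1.95 ± 0.26 (adjusted p = 4.08e-08) and Erbb2 of -0.73 ± 0.18 (adjusted p = 0.00107), the latter lost without E10.5 replicate 2 (adjusted p = 0.0810), with the mitochondrial ceilings (log2 difference -0.30, adjusted p = 0.327) and with gate thresholds multiplied by 2 (adjusted p = 0.0681). Nrg1 did not pass, with 15 UMIs against 3, nor did Egfr, which passed with gate thresholds divided by 2 (log2 difference -1.91, adjusted p = 0.0235).

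Against mesenchyme, 13.6% of all genes were higher and 12.1% lower in neural crest, and Erbb3 was the single gene of the 6 that passed. It was 57.1-fold higher in neural crest over pooled counts (interval 10.2 to 2261, 599 against 1 UMIs; adjusted p = 3.40e-09). Nrg1 (log2 difference -1.96 ± 0.86, adjusted p = 0.0911) passed without E10.5 replicate 2, whose mesenchyme had no Nrg1 UMI (adjusted p = 0.0372), and in DESeq2 (adjusted p = 0.0182). Egfr also passed in DESeq2 (log2 difference -2.38, adjusted p = 0.0426) and with gate thresholds divided by 2 (-2.84, adjusted p = 0.00166), and Erbb2 (0.57 ± 0.40) with gate thresholds multiplied by 2 (3.34, adjusted p = 0.00388). Outside these classes, E10.5 neurons, gated on Tubb3, had Nrg1 at 44.6 and 41.0 CPM, and embryonic epithelium had Erbb3 at 11.3 and 11.04 in E10.5 libraries and 10.9 at E8.5.

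**Figure D4:**
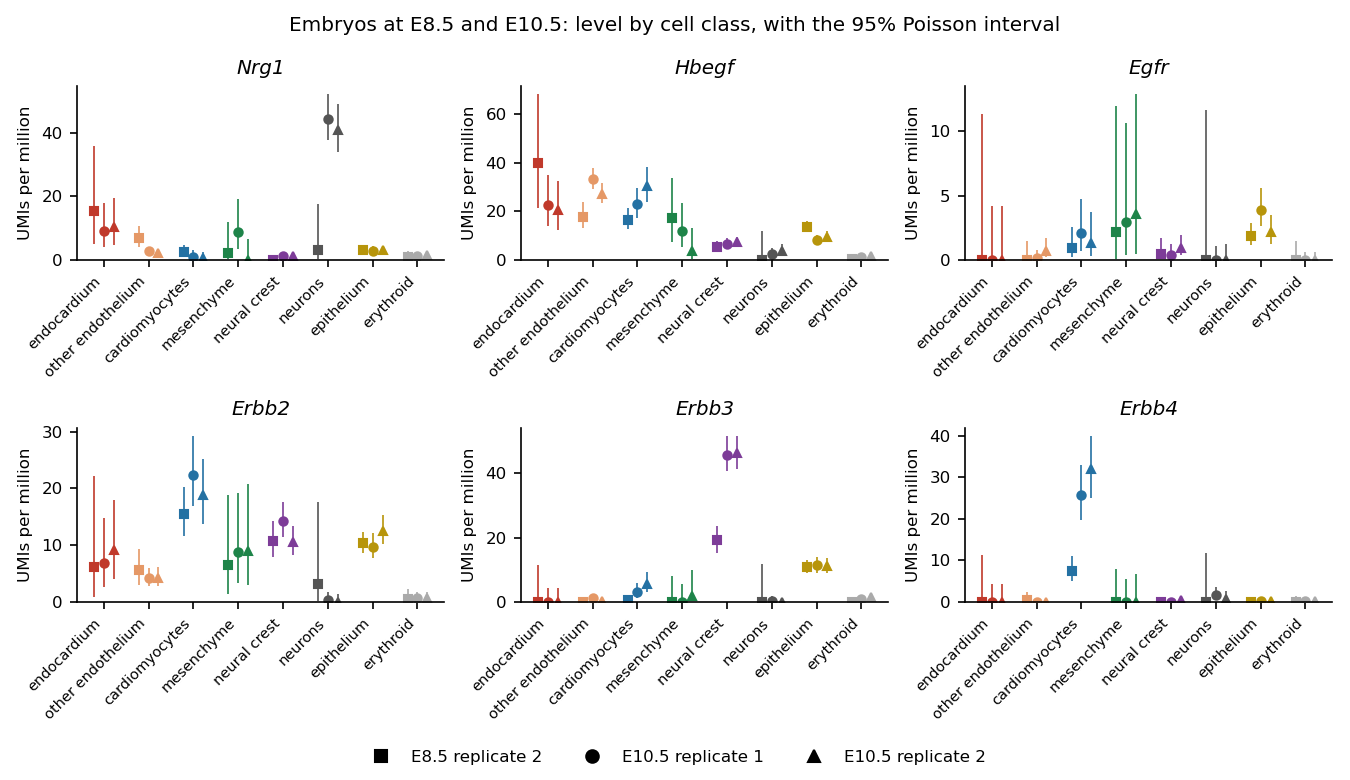
CPM (vertical axis) of each gene by cell class (horizontal axis) in the E8.5 library and both E10.5 libraries, with 95% Poisson intervals for counting error only. Erbb3 stands at 45.9 and 46.3 in neural crest and Nrg1 at 44.6 and 41.0 in neurons at E10.5.

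Between E12.5 and E16.5, 29.7% of all genes rose and 29.2% fell in cardiomyocytes, and of the 6 genes 1 rose and 3 fell. Erbb3 rose by 0.65 ± 0.14 on the log2 scale (adjusted p = 0.000126). Nrg1 fell by 4.07 ± 0.48 (adjusted p = 3.02e-09) from 0.799 CPM over pooled counts (91 UMIs) to 0.0337 (4 UMIs), with erythroid cells at 0.0482 (1 UMI) at E12.5. Free RNA held Nrg1 at 3.26 and 5.57 CPM in E12.5 libraries and 1.35 and 0.442 in E16.5 libraries, and its part in this fall was not tested. Erbb2 fell by 0.34 ± 0.08 (adjusted p = 0.000191), a call lost with the mitochondrial ceilings (log2 change -0.18, adjusted p = 0.0573). Egfr fell by 1.84 ± 0.61 (adjusted p = 0.00980) from 30 to 7 UMIs, a call lost without E12.5 replicate 1 (adjusted p = 0.126) and without E16.5 replicate 2 (adjusted p = 0.112). Its pooled level went from 0.263 to 0.0590 CPM, with erythroid cells at 0.0964 (2 UMIs) at E12.5 and no UMI at E16.5. Free RNA held Egfr at 0.858 and 1.11 CPM in E12.5 libraries and 0.676 and 0.442 in E16.5 libraries, above both cardiomyocyte levels, and its part in this change was not tested. Erbb4 (-0.09 ± 0.11, adjusted p = 0.493) and Hbegf (-0.10 ± 0.11, adjusted p = 0.421) did not pass.

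In endocardium 16.6% of all genes rose and 19.3% fell over the same stages, and of the 6 genes 1 rose and 1 fell. Erbb2 rose by 0.79 ± 0.21 on the log2 scale (adjusted p = 0.00309), and without E16.5 replicate 1 the change was 0.61 (adjusted p = 0.188). Hbegf fell by 0.67 ± 0.24 (adjusted p = 0.0268), a call lost without E16.5 replicate 1 (adjusted p = 0.207) and without E16.5 replicate 2 (adjusted p = 0.139). Nrg1 did not pass (-0.07 ± 0.18, adjusted p = 0.804). The 3 remaining receptor genes were too sparse in endocardium for a change to be seen at this depth.

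In mesenchyme 18.3% of all genes rose and 14.7% fell, and of the 6 genes none rose and 2 fell. Erbb3 fell by 3.42 ± 0.41 on the log2 scale (adjusted p = 1.55e-08) and Nrg1 by 2.82 ± 0.40 (adjusted p = 3.32e-07). Free RNA held Nrg1 at 3.26 and 5.57 CPM in E12.5 libraries and 1.35 and 0.442 in E16.5 libraries, and its part in the Nrg1 fall was not tested. With gate thresholds multiplied by 2 the Nrg1 call was lost (log2 change -1.83, adjusted p = 0.146). More Col1a1 barcodes lay near the threshold at E12.5, where 196 of 257 in replicate 1 had under 2 times its value, than at E16.5, where 123 of 588 in replicate 2 did, and the part of this in the change was not tested. Egfr (0.73 ± 0.34, adjusted p = 0.104), Erbb4 (-1.13 ± 0.52, adjusted p = 0.0945), Hbegf (-0.47 ± 0.21, adjusted p = 0.0774) and Erbb2 (-0.32 ± 0.21, adjusted p = 0.283) did not pass. Egfr did pass with gate thresholds divided by 2 (adjusted p = 0.0243) and without barcodes above the 95th percentile of UMIs (adjusted p = 0.0424), Erbb4 in DESeq2 (adjusted p = 0.0498) and Hbegf with no filter on low counts (adjusted p = 0.0392). When mesenchyme was split after the levels had been seen, barcodes with Sox9, a valve and cartilage factor gene, and no Tcf21 had Erbb3 at 18.1 and 10.3 in E12.5 libraries, 9.37 and 6.94 in E14.5 libraries and 0.929 and 3.18 in E16.5 libraries. Barcodes with Tcf21, an epicardium-derived fibroblast factor gene, and no Sox9 had no Erbb3 UMI in the E14.5 and E16.5 libraries, but with 24 to 61 barcodes each the upper 95% Poisson limits were 16.01 and 11.6 in E14.5 libraries and 5.16 and 5.74 in E16.5 libraries, above the levels of the whole class. At P3 Hbegf was 137 in the Sox9 barcodes and 17.6 in the Tcf21 barcodes.

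The stage changes were compared between classes, again after the values had been seen. For endocardium against cardiomyocytes, 13.1% of all genes had a higher and 15.2% a lower change, and 2 of the 6 genes passed, both higher. The Nrg1 changes differed by 4.00 ± 0.53 on the log2 scale (adjusted p = 1.72e-07), and those of Erbb2 by 1.13 ± 0.23 (adjusted p = 0.000160), the latter lost without E16.5 replicate 1 (adjusted p = 0.0543). Nearly all of the Nrg1 value came from the cardiomyocyte side, where Nrg1 changed by -4.07 at levels below those of free RNA. The endocardial Nrg1 change of -0.07 did not pass. Hbegf passed with no filter on low counts (-0.60, adjusted p = 0.0448) and with gate thresholds divided by 2 (-0.79, adjusted p = 0.0473). For mesenchyme against cardiomyocytes, 18.4% of all genes had a higher and 13.8% a lower change, with 1 of the 6 genes higher and 1 lower. The Erbb3 changes differed by -4.07 ± 0.43 (adjusted p = 1.07e-09) and the Egfr changes by 2.57 ± 0.70 (adjusted p = 0.00425), the latter lost without E12.5 replicate 1 (adjusted p = 0.0880) and without E16.5 replicate 2 (adjusted p = 0.0791). Most of the Egfr value came from the cardiomyocyte side, where Egfr changed by -1.84 at levels below those of free RNA, while the mesenchymal change of 0.73 did not pass.

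Within heart muscle, ventricular-like cardiomyocytes (Myl2) were compared with atrial-like ones (Sln). Erbb4 was 19.8 and 21.4 CPM at E12.5, 24.1 and 26.2 in E14.5 libraries, 17.0 and 18.4 in E16.5 libraries and 34.3 at P3 in atrial-like cells. In ventricular-like cells Erbb4 was 10.0 and 12.3, then 11.4 and 10.9, then 9.44 and 9.10, and 11.8 at P3. The groups did not overlap at any stage. Erbb2 was also higher in atrial-like cells at each stage, 47.8 and 45.8 against 32.7 and 36.1 in E12.5 libraries, 47.8 and 57.5 against 35.8 and 32.7 in E14.5 libraries, 34.8 and 38.5 against 23.9 and 24.0 in E16.5 libraries, and 18.7 against 10.1 at P3. Of 13527 genes tested, 22.3% were higher and 16.7% lower in ventricular-like cells, and of 5 of the 6 genes tested 1 was higher and 2 lower. The log2 difference was -0.86 ± 0.12 for Erbb4 (adjusted p = 5.72e-07) and -0.41 ± 0.08 for Erbb2 (adjusted p = 7.61e-05). Erbb3 passed narrowly at 0.66 ± 0.27 (adjusted p = 0.0487) and failed without any 1 of 5 libraries, both of E12.5, both of E14.5 and the second of E16.5 (adjusted p from 0.0569 to 0.159). Hbegf did not pass (0.28 ± 0.15, adjusted p = 0.153) but did without E12.5 replicate 1 (adjusted p = 0.00304) and without E16.5 replicate 2 (adjusted p = 0.0340), with no filter on low counts (adjusted p = 0.0467) and without barcodes above the 95th percentile of UMIs (adjusted p = 0.0145). The Erbb3 call was also lost with relative log expression size factors (adjusted p = 0.0624), in DESeq2 (adjusted p = 0.0792) and with a floor of 5000 UMIs (adjusted p = 0.0576). It was lost with the mitochondrial ceilings (adjusted p = 0.185), with gate thresholds multiplied by 2 (adjusted p = 0.567) and without barcodes above the 95th percentile of UMIs (adjusted p = 0.0940). Egfr was too sparse to test.

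**Figure D5:**
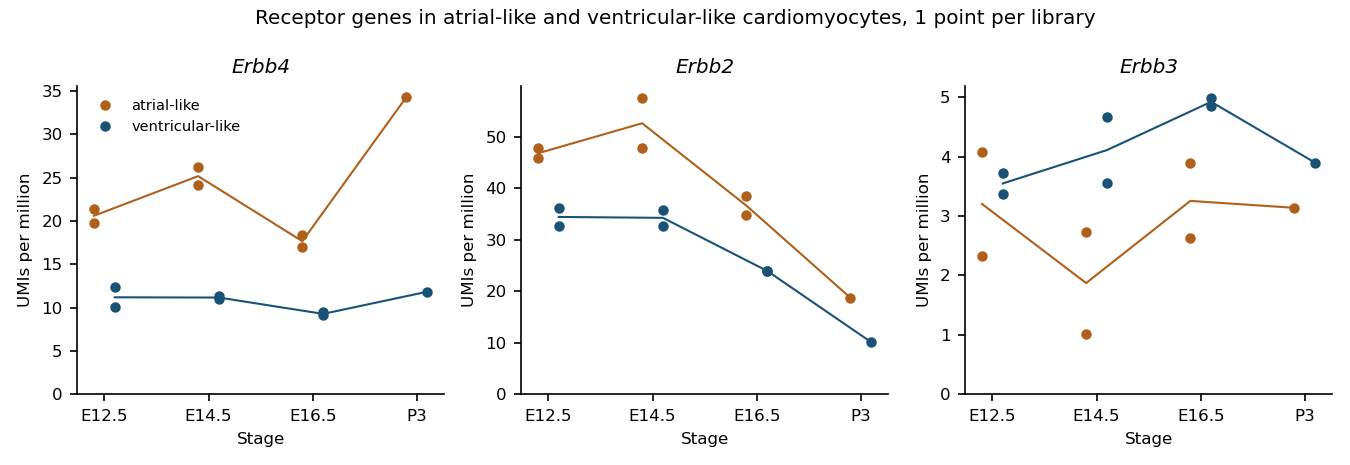
CPM (vertical axis) of Erbb4, Erbb2 and Erbb3 in atrial-like and ventricular-like cardiomyocytes by stage (horizontal axis); each point is 1 library and lines join stage means. Atrial-like cells lie above ventricular-like cells for Erbb4 and Erbb2 at all 4 stages.

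Nppa, a natriuretic peptide gene of trabecular muscle, divided ventricular-like cells into Nppa-high and Nppa-low. Of 13230 genes, 15.3% were higher and 16.3% lower in Nppa-high cells, and of the 5 genes tested 1 was lower and none higher. Erbb4 was 9.65 and 11.3 against 10.7 and 12.8 in E12.5 libraries, 10.1 and 7.44 against 11.8 and 11.2 in E14.5 libraries, and 6.498 and 7.72 against 9.80 and 8.99 in E16.5 libraries. Its log2 difference was -0.35 ± 0.10 (adjusted p = 0.00994), lost without E14.5 replicate 2 (adjusted p = 0.0575) and without E16.5 replicate 1 (adjusted p = 0.0857). Erbb2 (0.10 ± 0.06, adjusted p = 0.237) and Erbb3 (0.22 ± 0.15, adjusted p = 0.277) did not pass.

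A list of 50 other genes of the pathway was counted beside the 6, of which 45 were tested in the joint fit. Between endocardium and cardiomyocytes, 26 were higher and 12 lower in endocardium, where 38.8% and 37.8% of all genes were (median log2 difference 0.38, against 0.00 over all genes). All 7 genes listed for ligand shedding (Adam, Bace1 and Rhbdf genes) were higher (median 1.31), such as Adam12 at 4.23 ± 0.32 (adjusted p = 5.89e-15). So were 9 of the 12 genes listed as inhibitors (median 0.68), such as Lrig3 at 3.32 ± 0.41 (adjusted p = 2.87e-09). Of the 4 ligand genes tested, Nrg4, a neuregulin gene, was higher by 4.62 ± 0.33 (adjusted p = 3.60e-15), while Btc, the betacellulin gene, had 1 UMI in endocardium of the 6 libraries at E12.5 to E16.5. Between mesenchyme and cardiomyocytes 25 were higher and 14 lower (all genes 41.7% and 37.4%, list median 0.43 against 0.06), with Adam12 at 4.81 ± 0.23, Lrig3 at 4.01 ± 0.28, the receptor feedback gene Spry1 at 3.36 ± 0.10 and Myc at 2.99 ± 0.12. Against mesenchyme, endocardium had 20 higher and 21 lower (all genes 30.3% and 33%, list median -0.10 against -0.02), with Spry1 at -4.62 ± 0.18. Against other endothelium 14 were higher and 12 lower (all genes 22.1% and 23%, list median 0.09 against 0.01), with Spry1 at -2.63 ± 0.30.

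Over E12.5 to E16.5 the list had 20 genes that rose and 10 that fell in cardiomyocytes, beside 29.7% and 29.2% of all genes (list median 0.16 against 0.00). Of the 8 genes listed as responding to the pathway, 4 rose and 3 fell in cardiomyocytes (median log2 change 0.25). The largest changes of the list are named here. Etv4, a transcription factor gene known to respond to receptor signalling, fell by 3.66 ± 0.21 (adjusted p = 5.80e-18). Ccnd1, the cyclin D1 gene, fell by 2.58 ± 0.10 and Spry4 fell by 1.62 ± 0.15, while Btc rose by 2.26 ± 0.22. In endocardium 14 rose and 6 fell (all genes 16.6% and 19.3%, list median 0.25 against 0.00), with Fos at 1.95 ± 0.12 and Myc at -0.95 ± 0.29. In mesenchyme 20 rose and 6 fell (all genes 18.3% and 14.7%, list median 0.37 against 0.02), among them 9 of 12 inhibitor genes that rose and none that fell, with Spry1 at 2.46 ± 0.15 and Spry4 at 2.20 ± 0.27. At E10.5 neural crest had 7 genes higher and 15 lower than cardiomyocytes (all genes 23.3% and 25.5%, list median -0.29 against 0.00) and 7 higher and 6 lower than mesenchyme (13.6% and 12.1%, list median 0.20 against 0.08). Endocardium had 15 higher and 6 lower than cardiomyocytes there (15.7% and 16.9%, list median 0.08 against -0.06). Ventricular-like cells had 8 of 46 higher and 14 lower than atrial-like cells (all genes 22.3% and 16.7%, list median -0.17 against 0.06), with Etv1 at -1.73 ± 0.09. Nppa-high cells had 14 of 44 higher and 3 lower (15.3% and 16.3%, list median 0.10 against -0.02), with Etv1 at 1.26 ± 0.06 and Spry4 at 1.61 ± 0.21. In the comparisons of stage changes, 11 were higher and 7 lower for endocardium against cardiomyocytes (all genes 13.1% and 15.2%, list median 0.13 against -0.05). The counts were 18 and 6 for mesenchyme against cardiomyocytes (18.4% and 13.8%, 0.33 against 0.03), and 4 and 9 for endocardium against other endothelium (7.51% and 12.3%, -0.20 against -0.07).

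The genes whose levels were most like those of each of the 6, by Pearson's r over 33 class sums of the hearts at E12.5 to E16.5 among 7573 genes, were as follows, as a description over sums that share libraries and depth. Nrg1 was most like Foxc2 (0.93), Ackr3 (0.92) and Rdx (0.91). Hbegf was less closely matched, with Gnas (0.82), Tinagl1 (0.81) and Mllt4 (0.80). Erbb4 was most like Dsp (0.93), Mtus2 (0.93) and Des (0.92), the first and last being desmosome and intermediate filament genes of muscle, and Erbb2 was most like Col4a5 (0.91), Ube3a (0.90) and Pbrm1 (0.89). Egfr was most like Tcf21 (0.98), Spon2 (0.97) and Smoc2 (0.96), and Erbb3 was most like Ociad1 (0.91), Gpc1 (0.88) and Acta2 (0.88).

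P3 entered no test because its matrix pools 2 samples, and the 2 barcode suffixes in it are not tied to a sample record. The paper, on visual inspection, reports significant batch differences for P3 only. Nrg1 in endocardium was 18.9 (95% Poisson interval 13.9 to 25.1, 129 barcodes) under the first suffix and 82.8 (66.9 to 101, 68 barcodes) under the second. In other endothelium Nrg1 was 2.36 and 0.352, and in mesenchyme it was 2.27 and 5.202. Erbb2 was 1.71 and 9.33 in other endothelium and 3.62 and 8.81 in endocardium. In cardiomyocytes the suffixes had Erbb4 at 14.1 and 19.7, Erbb2 at 10.2 and 15.1, Erbb3 at 2.84 and 6.32, and Hbegf at 14.1 and 16.4. Egfr in mesenchyme was 16.9 and 15.97. The pooled P3 values above are weighted means of these.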

How the data were processed

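UMI counts, 1 matrix of genes by barcodes each, were deposited by the authors after Cell Ranger (version 2.1.1 in the submitters' notes; file headers name others) on mm10, with Seurat 3.1.1 named in the notes. The deposited matrices list all barcodes, except P3, which is filtered. Barcodes of at least 2000 UMIs were kept. Gates in UMIs per 10000 were Tnnt2 10, Cdh5 1, Npr3 1, Col1a1 5, Sox10 1, C1qb 3, Upk3b 1, Tubb3 10, Sox2 1 (neural progenitors), Epcam 1 and 1000 for 7 globin genes. Chambers used Myl2 20 and Sln 5, and Nppa 20 or more against under 5. Barcodes in more than 1 main gate were left out, and no doublet caller was run. Many Npr3 barcodes lay near the cut: 86 of 116 in E10.5 replicate 1 and 51 of 250 in E16.5 replicate 2 had under 2 times its value. Raw counts were summed per library and class (at least 10 barcodes) and tested with edgeR 4.0.16 (R 4.3.3), quasi-likelihood, TMM, its low-count filter and Benjamini-Hochberg adjustment, 1 coefficient per stage and class, threshold 0.05. The fits held 34, 12 and 12 sums. DESeq2 1.42.0 was an alternative. The code was tested on simulated data. Intervals cover counting error only. Named genes were all 6 and, from the list, at most 4 of the largest called differences per comparison, plus 3 most alike genes each. The genes, lists and tests were chosen with earlier results of these data known.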

Additional observations from a re-analysis of the deposited data

Results flagged for a closer look

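Stage changes that differed between classes were Nrg1 in endocardium against cardiomyocytes (4.00 on the log2 scale) and against other endothelium (4.66), Erbb2 in the same pairs (1.13 and 1.14), and, in mesenchyme against cardiomyocytes, Erbb3 (-4.07) and Egfr (2.57). The Nrg1 value against cardiomyocytes came almost wholly from the cardiomyocyte fall (-4.07), at levels below free RNA. Endocardial Nrg1 changed by -0.07, which did not pass. The Egfr value came mostly from cardiomyocytes (-1.84), whose Egfr lay below the level in free RNA, and less from mesenchyme (0.73, adjusted p = 0.104). Levels outside the tested classes and above the erythroid background were Nrg1 in E10.5 neurons (44.6 and 41.0 CPM), Hbegf in E12.5 barcodes with Upk3b (28.5 and 22.8), Erbb2 in such barcodes of E14.5 replicate 1 (44.0, from 7 UMIs in 17 barcodes, against 13.8 from 3 UMIs in 21 barcodes of replicate 2), and Erbb3 in the rare Sox10 barcodes of hearts, 67.9 in 7 barcodes of E14.5 replicate 1 and 229 in 6 barcodes at P3. These last barcodes were gated on Sox10 alone, and their part in the other results was not tested. Only levels past a set minimum of CPM and UMIs are listed here. Lower levels above the erythroid background were also seen, such as Erbb3 at 10.9 to 11.3 CPM in embryonic epithelium.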

How the results depend on the processing

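Over 19 alternative settings, 1605 values of the 6 genes were recomputed for 88 results. Of these values, 1523 kept their side of the threshold, 62 lost and 19 gained the threshold, and 1 that had passed reversed. A change of direction between values that both failed was counted among the 1523. The reversal was Erbb3 in ventricular-like against atrial-like cells, -0.046 (adjusted p = 0.976) with barcodes thinned to 2000 UMIs. That thinning lowers counts and left Egfr too sparse to test in every comparison, and Nrg1 in the chamber and Nppa comparisons. With it the numbers of the 6 genes called were 3 for mesenchyme against cardiomyocytes in hearts, 1 for endocardium against cardiomyocytes at E10.5, 1, 0 and 1 for the stage change in cardiomyocytes, endocardium and mesenchyme, 1 for each of the 3 comparisons of stage changes, 1 for the chambers and 0 for Nppa. The chamber call was Hbegf, newly passed (1.09, adjusted p = 0.0254), while Erbb4 (-0.89, adjusted p = 0.127) and Erbb2 (-0.39, adjusted p = 0.224) kept their size and lost the threshold. With gate thresholds multiplied by 2 they were 2 for neural crest against mesenchyme (Erbb2 new), 2 for endocardium against cardiomyocytes at E10.5, 0 and 1 for the stage change in endocardium and mesenchyme, and 1 each for the stage changes of mesenchyme against cardiomyocytes and endocardium against other endothelium. Neural crest against mesenchyme gave 2 with thresholds divided by 2 (Egfr new) and 3 in DESeq2 (Egfr and Nrg1 new). The endocardial stage change gave 1 in separate fits and 1 without barcodes above the 95th percentile of UMIs, and the stage changes of endocardium against other endothelium gave 1 with no filter on low counts. The cause was not tested. In separate fits, calls over all genes were 91.8% to 102% of those reported. They were 86.9% to 104% without barcodes above the 95th percentile of UMIs and 96.0% to 110% with no filter on low counts. Calls over all genes, as a percent of those reported, were 17.3% to 57.4% over the 15 comparisons with thinning, 44.9% to 99.3% with thresholds multiplied by 2, 99.0% to 125% with thresholds divided by 2, 94.8% to 103% in DESeq2 and 51.5% to 107% with 1 library left out. Leaving out 1 library each gave 2 to 4 calls for endocardium against cardiomyocytes at E10.5, 1 to 2 for neural crest against mesenchyme and for each comparison of stage changes, 0 to 2 for the endocardial stage change and 0 to 1 for Nppa. Replicate numbers are labels within a stage and do not pair samples. With the library as a replicate block, ventricular against atrial Hbegf passed (0.28, adjusted p = 0.0487) and no other call changed. Deviations of 2 classes of the same library correlated at -0.015 to 0.218. Stage comparisons could not be fitted with the block. The low UMI counts of Egfr, Erbb3 and Erbb4 in endothelial classes limit what can be seen there.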
